A study of Mus musculus with 9 samples.

Results

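The genes described here are 53 genes that modify, fold, trim and export procollagen, or that run the endoplasmic reticulum (ER) in which this is done. They were chosen by name, as prolyl and lysyl hydroxylases, collagen chaperones and prolyl isomerases, propeptide-processing factors, general ER chaperones, genes of the unfolded protein response, export factors and genes of ER-associated degradation. The names were matched to Ensembl identifiers, and all 53 were found among the 55416 genes of the count table. Of them, 52 had enough reads to be tested, and Colgalt2, a collagen galactosyltransferase, did not, with at most 7 reads in any library.

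RNA-Seq was performed on cultured AdvSca1-SM cells, Sca1-expressing progenitors that derive from vascular smooth muscle and were sorted by YFP and Sca1 from pooled mouse aortas and carotid arteries. The mice carried SM22α-Cre-YFP, in which a smooth muscle promoter drives the Cre that switches on the YFP label. There were 9 libraries, 3 for each of the groups Stem, TGF-β and Both, and all cells received 0.1% DMSO for 72 hours. Stem cells were given no further agent and, by the study's methods, were kept in stem cell medium, whereas TGF-β cells were given 5 ng/mL TGF-β in DMEM with 0.1% serum. Cells of the group Both were given the same TGF-β medium plus 50 μM PFI-3, a compound that binds the bromodomain of the chromatin remodeler Brg1. The labels describe low-serum growth arrest before treatment and do not give the medium of the Stem group on its own, so they leave the medium of Stem unsettled. If it was stem cell medium, medium and cytokine differ together between Stem and TGF-β and cannot be told apart, while PFI-3 is what sets Both apart from TGF-β. The comparisons use shared libraries, so their values for a gene are given side by side and are not independent.

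Fibrillar collagen is made on ER-bound ribosomes, hydroxylated on prolines and lysines while its chains are still unfolded, and closed into a triple helix with the help of prolyl isomerases and the chaperone Hsp47. The rigid trimer leaves the ER in enlarged COPII carriers, and its end propeptides are cut off at or outside the cell surface. Cells that make large amounts of collagen, myofibroblasts among them, depend on this machinery, and the unfolded protein response adjusts ER capacity through the sensors Ire1, Atf6 and Perk.

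Libraries held between 35686291 and 47741128 counts, and replicates of a group had Spearman correlations of at least 0.995 across genes. Values below are counts normalized by TMM to the mean library of 41184338, and a gene is said to have risen or fallen where edgeR's quasi-likelihood test, over 14879 genes, gave an adjusted p below 0.05. Changes are fitted log2 fold changes with their standard errors, from Stem to TGF-β (with TGF-β) or from TGF-β to Both (with PFI-3) unless another pair is named. Genes were counted on GRCm39, and their coordinates were not used here. Summed myofibroblast markers (Acta2, Postn, Tagln and Col1a1, itself a cargo gene below) ran from 88764 to 100616 in Stem, 723135 to 773098 under TGF-β and 513427 to 544717 in Both. Col1a1 made up most of each sum, with means of 83526, 707485 and 512443. All 4 markers rose with TGF-β, with log2 fold changes between 1.21 and 3.08. All 4 fell with PFI-3, with changes between -1.74 and -0.25. Summed progenitor markers (Ly6a, Cd34, Pdgfra, Scara5, Klf4, Gli1) ran from 54276 to 62685 in Stem, 12792 to 12944 under TGF-β and 12714 to 13346 in Both, with Gli1 at 3 reads or fewer in Stem. Pdgfra made up most of that sum in Stem, and of the 6 markers 4 fell with TGF-β (Ly6a, Cd34, Pdgfra and Scara5) and 2 rose (Klf4 and Gli1). Mature smooth muscle markers (Myh11, Cnn1, Smtn, Myocd) summed to 2782 to 3732 in Stem, 2694 to 3157 under TGF-β and 2542 to 2655 in Both. Their sum hides opposite changes, since with TGF-β 1 of the 4 rose by 5.37 and 1 fell by 1.58. With PFI-3, 1 fell and 0 rose, and Myocd was at 3 reads or fewer in Stem. Endothelial markers (Pecam1, Cdh5, Kdr, Tek) summed to at most 67.4. Of the 2 endothelial markers tested, 1 rose by 4.97 and 1 fell by 1.31 with TGF-β. Leukocyte markers (Ptprc, Cd68, Adgre1, Lyz2, Csf1r) summed to 139.6 to 152 in Stem, 178 to 219 under TGF-β and 291 to 307 in Both, with Cd68 and Csf1r higher with TGF-β, Lyz2 and Csf1r higher with PFI-3, and Ptprc and Adgre1 at 3 reads or fewer in every library. All 6 hepatocyte markers were at that floor, although the extraction text in the labels mentions hepatic tissue. The part of these markers' cells and states in the results was not tested, and in bulk RNA fewer cells of a type and less RNA per cell cannot be told apart.

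With TGF-β, 37 of the 52 tested genes rose and 7 fell. The shares were 71.2% and 13.5%, against 37.3% and 37.7% of all tested genes. Past 2-fold, 9 rose, which was 17.3% against 10.6% of all genes, and 0 fell, against 14.5% of all genes. The lowest fitted log2 fold change among the 52 was -0.43, so that none was past 2-fold at any p, and DESeq2 also called 0. The median log2 fold change was 0.33, whereas that of all tested genes was -0.00. With scaling to total counts, which lowered the median of all genes by 0.12, the split was 31 higher and 13 lower. With PFI-3 added to TGF-β, 14 genes rose and 3 fell. The 14 made up 26.9% of the tested genes, against 3.54% of all genes, and the 3 made up 5.77%, against 5.38%. None passed 2-fold in either direction with edgeR or DESeq2, against 0.161% of all genes upward and 0.470% downward, and the fitted changes ran from -0.36 to 0.53, inside 2-fold at any p. At an unadjusted p below 0.05 the counts were 19 higher and 7 lower. The count of 14 fell when any TGF-β or Both library or Stem replicate 3 was left out. Without Stem replicate 1 it gained P4ha3, P3h1 and Mia2, and without Stem replicate 2 it gained P4ha3. It was 5 without TGF-β replicate 2, TGF-β replicate 3 or Both replicate 1, 7 without Both replicate 2, 8 without TGF-β replicate 1 and 9 without Stem replicate 3 or Both replicate 3. The count of 3 became 5 without Stem replicate 2. Between Stem and Both, 38 genes rose, 73.1% against 36.6% of all genes, and 6 fell, 11.5% against 36.6%. Of these, 8 rose past 2-fold (P4ha3, Colgalt1, P3h1, P3h2, Fkbp10, Pcolce2, Kdelr3 and Herpud1), 15.4% against 9.55% of all genes. None fell past 2-fold with edgeR or DESeq2, against 13.2% of all genes, and the lowest fitted change was -0.55.

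**Figure D1:**
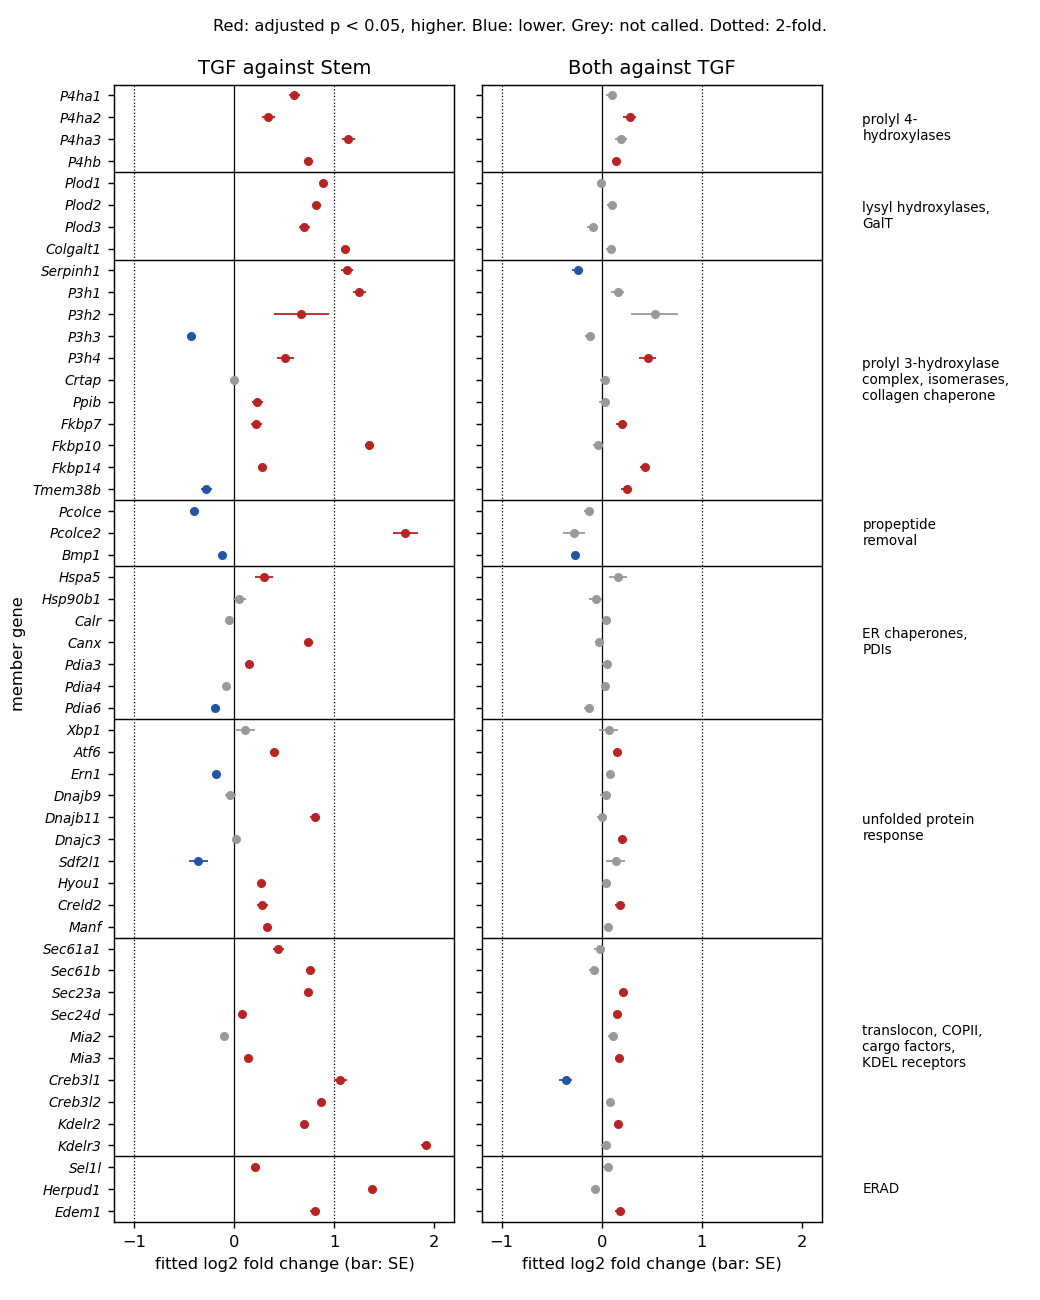
Fitted log2 fold change with its standard error for each of the 52 tested genes, grouped by role, in TGF-β against Stem (left) and Both against TGF-β (right). In the left panel 37 genes are called higher and 9 of them lie beyond the 2-fold line, and in the right panel all values lie between -0.36 and 0.53, with 14 called higher and 3 lower.

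The order of the group means placed 28 of the 52 genes at Stem lowest, TGF-β between and Both highest. That was 53.8% of them, against 17.6% of all tested genes. Another 11 had Both between Stem and TGF-β, 21.2% against 28.7% of all genes. These orders take no account of replicate error. Among the genes called, 12 rose with TGF-β and were higher again with PFI-3 (P4ha2, P4hb, P3h4, Fkbp7, Fkbp14, Atf6, Creld2, Sec23a, Sec24d, Mia3, Kdelr2 and Edem1), and 2 rose with TGF-β and were lower with PFI-3 (Serpinh1 and Creb3l1). Of the 12, only P3h4, Fkbp14 and Sec23a kept the call with PFI-3 in all 16 alternative fits, and of the 2 only Creb3l1 did. Sec24d was not called with TGF-β in 9 of the 16. The share of all tested genes with such joint calls was not computed. Bmp1 fell in both comparisons, and Tmem38b fell with TGF-β and was higher with PFI-3.

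**Figure D2:**
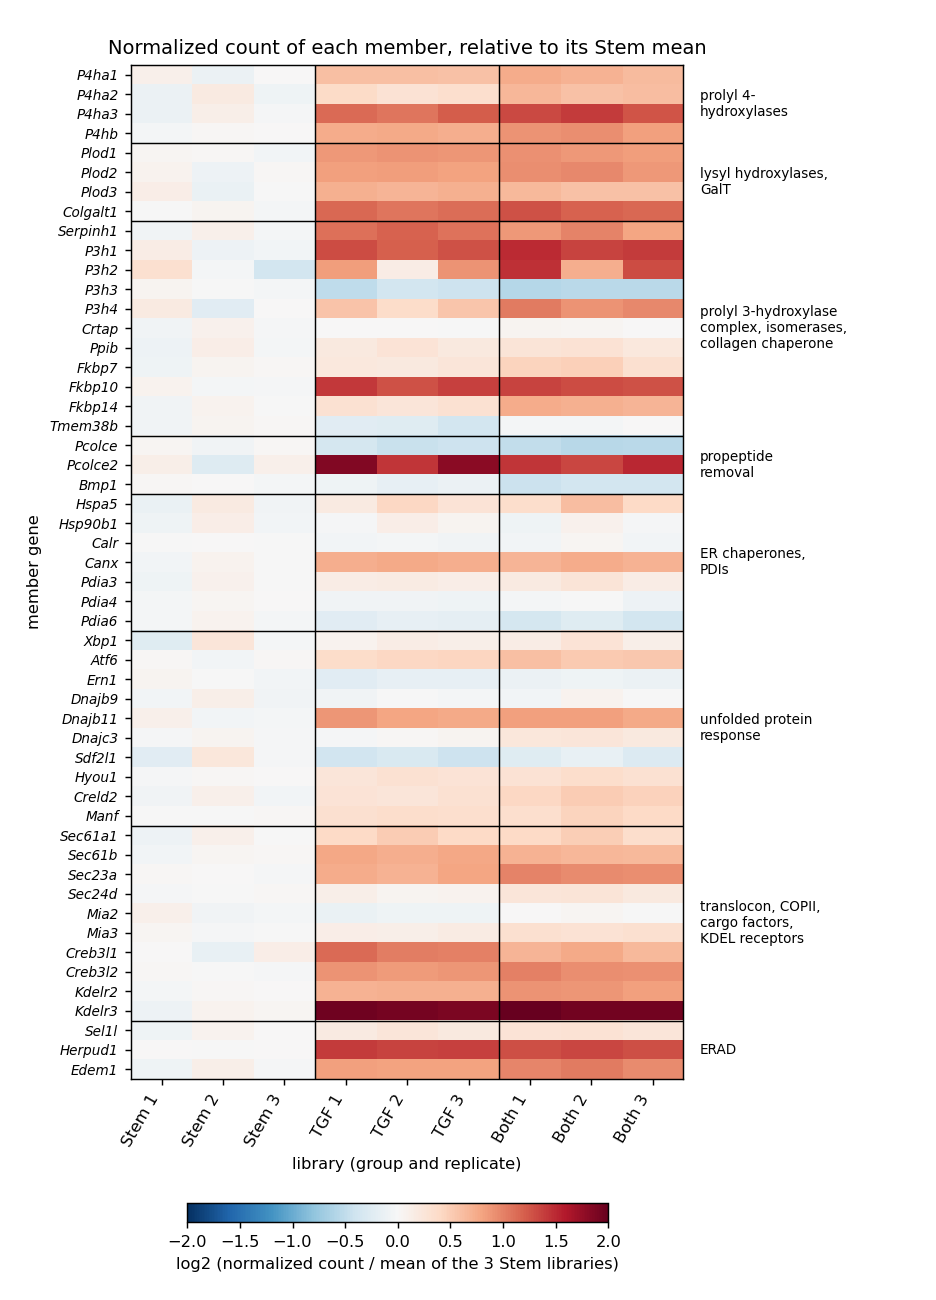
Heat map of the 52 tested genes (rows, grouped by role) in the 9 libraries (columns), colored by log2 of the normalized count over the mean of the 3 Stem libraries. The TGF-β and Both libraries are red for the prolyl 4- and lysyl hydroxylases, Fkbp10, Pcolce2, Kdelr3 and Herpud1 and pale for most general ER chaperones, and Pcolce, P3h3 and Pdia6 are blue.

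Per base of exon, the most abundant of these transcripts in Stem was Calr, with 375 reads per kilobase of exon per 1e6 counts, followed by Serpinh1 at 320.3 and P4hb at 282. In TGF-β the order was Serpinh1 at 699, P4hb at 472 and Calr at 361, and in Both it was Serpinh1 at 592, P4hb at 519.9 and Calr at 371. Serpinh1 and P4hb thus passed Calr, a general lectin chaperone, whose normalized counts were 44303, 44683 and 44430.1 in Stem, 42874, 43406 and 42199 under TGF-β and 42959, 45906 and 43044 in Both and gave a log2 fold change with TGF-β of -0.05 (adjusted p = 0.218). Under total counts, Calr was called lower with TGF-β, at -0.17 with an adjusted p of 0.00199.

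All 4 prolyl 4-hydroxylase genes rose with TGF-β, where 37.3% of all tested genes rose. The enzyme pairs a catalytic alpha subunit, encoded by P4ha1, P4ha2 or P4ha3, with the disulfide isomerase encoded by P4hb, and it makes the hydroxyprolines that hold the triple helix together. P4hb had normalized counts of 32473, 33698 and 33435 in Stem, 55499, 56368 and 54866 under TGF-β and 61639, 63334 and 58818 in Both. Every TGF-β library lay above every Stem library and below every Both library. Its log2 fold change was 0.74 ± 0.0400 (SE, adjusted p = 5.46e-09) with TGF-β and 0.14 ± 0.0397 (SE, adjusted p = 0.0482) with PFI-3. P4ha3, per base of exon the scarcest alpha subunit gene in Stem, had 678, 799 and 727 in Stem, 1613, 1549.6 and 1698 under TGF-β and 1834, 1941 and 1759 in Both. It was the only one of the 4 past 2-fold with TGF-β, at 1.14 ± 0.0648 (SE, adjusted p = 9.05e-09), and its change with PFI-3 was 0.19 (adjusted p = 0.0801). The latter was called higher without Stem replicate 1 or 2, with no filter, with the replicate block and with the 6 libraries compared. P4ha2 had 1591, 1949 and 1634 in Stem, 2251, 2098 and 2186 under TGF-β and 2735, 2589 and 2633 in Both. The groups did not overlap, and the log2 fold changes were 0.34 ± 0.0673 (SE, adjusted p = 6.45e-04) and 0.28 ± 0.0659 (SE, adjusted p = 0.0197). The PFI-3 call was lost for P4ha2 without TGF-β replicate 2 or 3 or Both replicate 1 or 3. For P4hb it was lost without Stem replicate 3, any TGF-β replicate or Both replicate 1 or 2, and with DESeq2 size factors in edgeR. P4ha1, per base of exon the most abundant of them, changed by 0.60 ± 0.0513 (SE, adjusted p = 4.49e-07) and then by 0.10 (adjusted p = 0.284). Per base of exon, P4ha1 made up 84.1% ± 2.28 of the alpha subunit reads in Stem and 82.6% ± 0.631 under TGF-β (SD, n = 3), and P4ha3 went from 7.30% ± 0.931 to 10.4% ± 0.488.

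The lysyl hydroxylases and the galactosyltransferase that acts after them rose with TGF-β as well, 4 of the 4 tested, with log2 fold changes between 0.70 and 1.11. Of all tested genes, 37.3% rose. Hydroxylysines carry the sugars of collagen and form its stable cross-links. Colgalt1, which adds galactose to them, had 5291, 5534 and 5214 in Stem, 11837, 11212 and 11657 under TGF-β and 12931, 12144 and 11863 in Both and passed 2-fold, at 1.11 ± 0.0440 (SE, adjusted p = 3.17e-10). The TGF-β libraries were all above the Stem libraries. Plod2, which hydroxylates the telopeptides at the ends of the helix, had 24826, 22251 and 24216 in Stem, 41958, 42515 and 41471 under TGF-β and 45030.4, 46116 and 43457 in Both, a change of 0.82 ± 0.0460 (SE, adjusted p = 8.03e-09). Plod1, which acts on the helix, and Plod3, whose product also transfers sugars, changed by 0.89 and 0.70. With PFI-3 none of the 4 was called by edgeR or DESeq2, where 3.54% of all genes rose and 5.38% fell, and 0 had an unadjusted p below 0.05. Within the family, Plod2 took 66.7% ± 0.810 of the reads per base of exon in Stem, 68.0% ± 0.448 under TGF-β and 70.4% ± 0.691 in Both (SD, n = 3). Colgalt2 had 1, 0 and 2 reads in Stem, 1, 5 and 5 under TGF-β and 1, 2 and 7 in Both, and its counts were too few for a test.

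Serpinh1 (ENSMUSG00000070436) encodes Hsp47, the chaperone that binds the collagen triple helix in the ER. Its normalized counts were 30751, 34460.2 and 31469 in Stem, 69291, 73265 and 68356 under TGF-β and 58707, 64135 and 55967 in Both. The TGF-β libraries were all above the Both libraries, and these were all above the Stem libraries. The log2 fold change was 1.13 ± 0.0595 (SE, adjusted p = 4.64e-09) with TGF-β and -0.24 ± 0.0587 (SE, adjusted p = 0.0263) with PFI-3. The second call was lost on leaving out any of TGF-β replicates 1, 2 and 3 or Both replicates 1 and 3. From Stem to Both the change of Serpinh1 was 0.89 ± 0.0592 (SE, adjusted p = 4.47e-08).

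**Figure D3:**
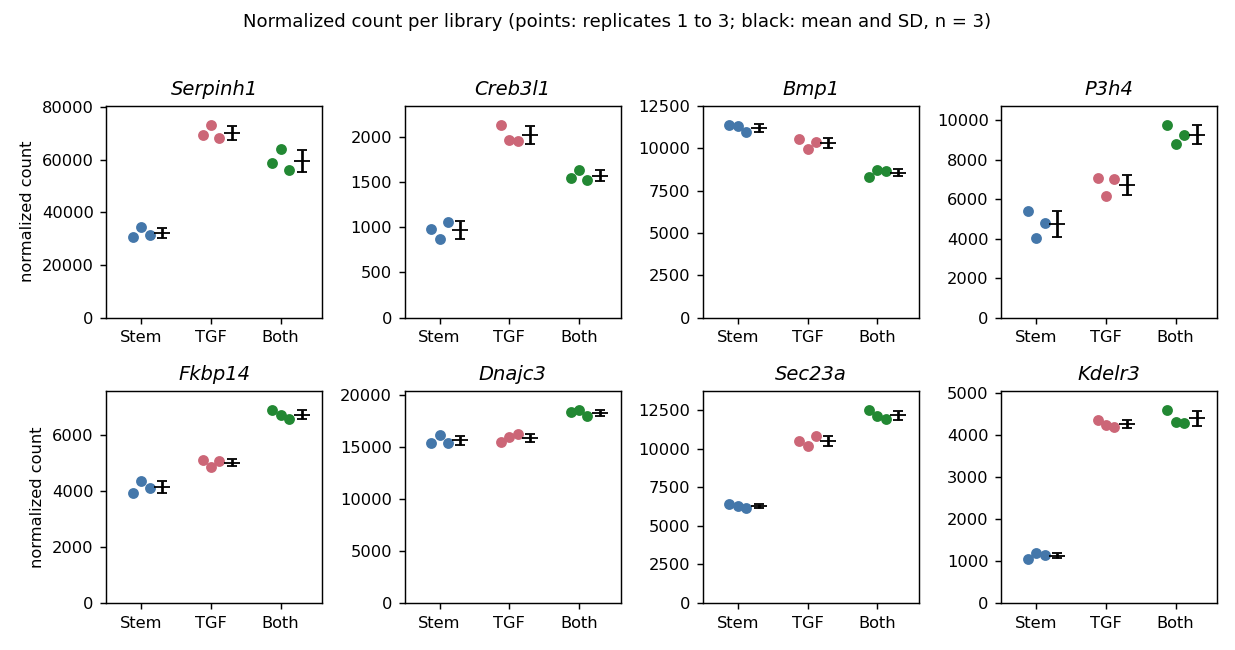
Normalized counts of 8 genes by library (colored points, replicates 1 to 3 of each group) with the group mean and SD (black), on axes that start at 0. Serpinh1 and Creb3l1 are highest in TGF-β, Bmp1 is lowest in Both, P3h4, Fkbp14, Dnajc3 and Sec23a are highest in Both, and Kdelr3 is at about the same level in TGF-β and Both.

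The prolyl 3-hydroxylases went apart. P3h1, the catalytic part of the complex with Crtap and cyclophilin B that modifies fibrillar collagen chains, had 4018, 3395 and 3499 in Stem, 8944, 8303 and 8769 under TGF-β and 10272, 9292 and 9559 in Both and rose by 1.25 ± 0.0632 (SE, adjusted p = 3.00e-09). With PFI-3 P3h1 changed by 0.16 (adjusted p = 0.128). This was called higher without Stem replicate 1, with no filter, with the replicate block and with the 6 libraries compared. P3h3, another enzyme of the family, had 6255, 5957 and 5831 in Stem, 4249, 4661 and 4507 under TGF-β and 4049, 4126 and 4161 in Both and fell by 0.43 ± 0.0428 (SE, adjusted p = 1.80e-06). In neither gene did Stem and TGF-β overlap. P3h1 made up 38.0% ± 1.40 of the family's reads per base of exon in Stem, 66.1% ± 1.78 under TGF-β and 70.2% ± 1.23 in Both, while P3h3 went from 61.6% ± 1.44 to 33.4% ± 1.89 and 29.1% ± 1.34 (SD, n = 3). Each of these steps had an exact two-sided permutation p of 0.100, the smallest that 3 against 3 libraries allow. Shares within gene families were compared in 75 such tests, and the smallest Benjamini-Hochberg adjusted value was 0.119. Crtap, the partner of P3h1, had 5602, 6199 and 5771 in Stem, 5908, 5861 and 5795 under TGF-β and 6070.2, 5997 and 5859 in Both, and its log2 fold change was -0.00 (adjusted p = 0.991). The standard error was 0.0414, and the groups overlapped. Scaling to total counts gave -0.12 for Crtap with an adjusted p of 0.00937. Ppib, which encodes cyclophilin B, rose by 0.23 ± 0.0559 (SE, adjusted p = 0.00288). P3h2 was scarce, at 49.2, 38.0 and 30.3 in Stem, 70.1, 43.6 and 73.2 under TGF-β and 108, 65.1 and 96.5 in Both, and its groups overlapped with TGF-β. Its change was 0.67 ± 0.271 (SE, adjusted p = 0.0417), a call that was lost with total counts and without Stem replicate 2 or 3 or TGF-β replicate 1 or 3, and it passed 2-fold between Stem and Both, at 1.20 ± 0.255 (SE, adjusted p = 0.00109).

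P3h4 (ENSMUSG00000006931), whose product works with P3h3 and with lysyl hydroxylase 1 in an ER complex, had 5385, 4049 and 4775 in Stem, 7044, 6134 and 6993 under TGF-β and 9753, 8789.7 and 9225 in Both. The groups did not overlap, and Both was the highest. P3h4 rose by 0.51 ± 0.0886 (SE, adjusted p = 2.36e-04) with TGF-β and by 0.46 ± 0.0877 (SE, adjusted p = 0.00707) with PFI-3, while P3h3 changed by -0.12 (adjusted p = 0.104) with PFI-3. Its call with PFI-3 held in all 16 alternative fits.

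The FK506-binding prolyl isomerase genes Fkbp7, Fkbp10 and Fkbp14 rose with TGF-β. Of the relatives outside the 53 that were listed beside them, Fkbp9 and Fkbp11 also rose, and Fkbp2 was not called, at 0.10 (adjusted p = 0.187). Fkbp10 (ENSMUSG00000001555), which encodes FKBP65, a collagen chaperone whose loss causes brittle bones, had 4981, 4621 and 4706 in Stem, 12716, 11566 and 12242 under TGF-β and 12123, 11839.6 and 11573 in Both and rose by 1.35 ± 0.0458 (SE, adjusted p = 8.12e-11). With PFI-3 its change was -0.04 (adjusted p = 0.651), and TGF-β and Both overlapped. Fkbp14 (ENSMUSG00000038074), whose loss causes a form of Ehlers-Danlos syndrome, had 3916, 4343 and 4103 in Stem, 5098, 4851 and 5066 under TGF-β and 6875, 6717 and 6573 in Both. The groups did not overlap, and the log2 fold change was 0.28 ± 0.0436 (SE, adjusted p = 8.95e-05) with TGF-β and 0.43 ± 0.0432 (SE, adjusted p = 1.30e-04) with PFI-3, the lowest adjusted p of the 52 genes in that comparison, and the second call held in all 16 alternatives. Fkbp7 had 1419.6, 1568 and 1535 in Stem, 1751, 1719 and 1793 under TGF-β and 2047, 2109 and 1893 in Both, with changes of 0.22 ± 0.0527 (SE, adjusted p = 0.00242) and 0.20 ± 0.0517 (SE, adjusted p = 0.0326). The first was not called under total counts, and the second not without Stem replicate 3, any TGF-β replicate or Both replicate 1 or 2. Among the reads per base of exon of these 3 genes, Fkbp10 took 44.7% ± 2.23 in Stem, 63.5% ± 0.731 under TGF-β and 57.5% ± 0.476 in Both, and Fkbp14 took 27.3% ± 1.11, 18.5% ± 0.216 and 23.1% ± 0.202 (SD, n = 3). Tmem38b encodes TRIC-B, an ER cation channel whose loss causes brittle bones. It had 1161, 1271 and 1241 in Stem, 1049, 1035 and 945 under TGF-β and 1188, 1188 and 1229.7 in Both. Every TGF-β library was below every Stem and every Both library, and Stem and Both overlapped. The changes were -0.28 ± 0.0542 (SE, adjusted p = 5.32e-04), 0.25 ± 0.0538 (SE, adjusted p = 0.0131) and, from Stem to Both, -0.03 (adjusted p = 0.671). The call with PFI-3 was lost without TGF-β replicate 3 or Both replicate 3.

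The genes of propeptide removal moved in different directions with TGF-β, 1 higher and 2 lower, where 37.3% of all genes were higher and 37.7% lower. Bmp1 (ENSMUSG00000022098) encodes the procollagen C-proteinase. Its counts were 11389, 11314 and 10962 in Stem, 10585, 9982 and 10365 under TGF-β and 8331, 8719 and 8662 in Both. Both was below TGF-β, which was below Stem, without overlap, and the changes were -0.12 ± 0.0379 (SE, adjusted p = 0.0113) with TGF-β and -0.27 ± 0.0379 (SE, adjusted p = 0.00115) with PFI-3. The first was lost without TGF-β replicate 2, where it was -0.09 with an adjusted p of 0.0751, and the second held in all 16 alternatives. Pcolce and Pcolce2 encode enhancers of that enzyme. Pcolce had 17451, 16267 and 17359 in Stem, 13332, 12496 and 12805 under TGF-β and 12040.4, 11567 and 11744 in Both and fell by 0.40 ± 0.0413 (SE, adjusted p = 2.24e-06), whereas Pcolce2 had 326, 249.9 and 323 in Stem, 1083, 808 and 1043 under TGF-β and 807, 756 and 853 in Both and rose by 1.71 ± 0.122 (SE, adjusted p = 7.76e-08). Pcolce nevertheless supplied most of the pair's reads per base of exon, 98.6% ± 0.152 in Stem and 94.1% ± 0.707 under TGF-β (SD, n = 3). With PFI-3, Pcolce changed by -0.13 (adjusted p = 0.0779) and Pcolce2 by -0.28 (adjusted p = 0.143). All 3 genes thus had negative values with PFI-3, each with an unadjusted p below 0.05, and DESeq2 called Bmp1 and Pcolce lower. Pcolce was also called with the 6 libraries compared and without Stem replicate 2, and Pcolce2 with no filter and without TGF-β replicate 2. Outside the 53, Adamts2, the main procollagen N-proteinase, had 36527, 37092 and 35765 in Stem, 20016, 20287 and 19660.3 under TGF-β and 15627, 16530.1 and 15573 in Both. It fell in both comparisons, by -0.87 ± 0.0378 (SE, adjusted p = 7.74e-10) and -0.33 ± 0.0376 (SE, adjusted p = 2.75e-04). Of other proteinase genes listed outside the 53, Adamts3 and Adamts14 also fell with TGF-β. Tll1 rose by 0.23 ± 0.0437 (SE, adjusted p = 5.12e-04). With PFI-3 Adamts3, Adamts14 and Tll1 were not called, and they were chosen for mention after their values were seen.

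Apart from Canx, general ER chaperones and disulfide isomerases changed little with TGF-β, by log2 fold changes between -0.19 and 0.30. Of 7 genes, 3 rose with TGF-β (Canx, Hspa5 and Pdia3), 1 fell (Pdia6) and 3 were not called (Hsp90b1, Calr and Pdia4), where 37.3% of all genes rose and 37.7% fell, and the median log2 fold change was 0.05. Canx, which encodes the membrane lectin calnexin, had 32153, 34960.0 and 33237 in Stem, 55199, 56785 and 55204 under TGF-β and 53863, 55787 and 54367 in Both and rose by 0.74 ± 0.0411 (SE, adjusted p = 7.77e-09), against -0.05 (adjusted p = 0.218) for Calr, its soluble counterpart. Hspa5, which encodes BiP, the main ER Hsp70 and the usual readout of ER stress, had 36654, 45472 and 38453 in Stem, 45748, 53543 and 48749.8 under TGF-β and 51089.7, 61495 and 52803 in Both. Its change with TGF-β was 0.30 ± 0.0897 (SE, adjusted p = 0.00992), it was 0.18 with an adjusted p of 0.0608 under total counts, and Hspa5 was highest in replicate 2 of every group. Pdia3, a disulfide isomerase that works with both lectins, rose by 0.15 ± 0.0474 (SE, adjusted p = 0.0148), and this call was lost under total counts and without Stem replicate 1. Hsp90b1, which encodes Grp94, had 43756, 50863 and 44366 in Stem, 45445, 50768 and 48076 under TGF-β and 43740.1, 49084 and 45336 in Both, and its groups overlapped in every comparison. Without Stem replicate 2, where Hsp90b1 was highest in Stem, it was called higher with TGF-β, and Pdia4 was called lower without Stem replicate 1 and under total counts. Pdia6, another disulfide isomerase, had 12319, 13351 and 12418 in Stem, 10882, 11303 and 11151 under TGF-β and 9903, 10717 and 9792 in Both and fell by 0.19 ± 0.0461 (SE, adjusted p = 0.00236). With PFI-3 none of the 7 was called by the main edgeR fit or DESeq2, where 3.54% of all genes rose and 5.38% fell. Of the 7, 1 (Pdia6) had an unadjusted p below 0.05. Hspa5 changed by 0.16 ± 0.0896 (SE, adjusted p = 0.309) with PFI-3 and was called higher with no filter and with the replicate block. Pdia6 changed by -0.13 ± 0.0461 (SE, adjusted p = 0.0990). It was called lower with the replicate block, with the 6 libraries compared and without Stem replicate 2 or Both replicate 2.

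These chaperone genes are the textbook carriers of the ER stress element (ERSE), the promoter sequence bound by Atf6 together with NF-Y. RefSeq promoter windows on GRCm38.p6, from 250 bases before to 50 bases after the start, were matched by symbol for 40 of the 53 genes. ERSE was searched on both strands as CCAAT and CCACG with 9 bases of any kind between them, and ERSE-II as ATTGG and CCACG with 1 base between. ERSE was present in 7 of the 40 genes, or 17.5%, against 37 of all 27025 genes with a window, or 0.137%. ERSE-II was present in 2 (Dnajb11 and Herpud1), or 5%, against 0.0444%. The stretches before the start that hold these sequences are shown to let the sites be compared, with the letters of each motif outside its gap in capitals, on the strand of the gene, 5′ to 3′. A motif on the opposite strand reads CGTGG first and ATTGG second.
Hspa5, chr2:34772015-34772053, plus strand: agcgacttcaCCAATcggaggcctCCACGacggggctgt
Calr, chr8:84847065-84847103, minus strand: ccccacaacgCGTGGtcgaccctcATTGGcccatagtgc
Canx, chr11:50325790-50325828, minus strand: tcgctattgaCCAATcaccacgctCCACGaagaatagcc
Pdia6, chr12:17266481-17266519, plus strand: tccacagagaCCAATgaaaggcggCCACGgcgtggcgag
Dnajc3, chr14:118937817-118937855, plus strand: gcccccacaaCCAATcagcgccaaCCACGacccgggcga
Creld2, chr15:88819510-88819548, plus strand: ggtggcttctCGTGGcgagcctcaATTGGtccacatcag
Hsp90b1, chr10:86705523-86705666, minus strand: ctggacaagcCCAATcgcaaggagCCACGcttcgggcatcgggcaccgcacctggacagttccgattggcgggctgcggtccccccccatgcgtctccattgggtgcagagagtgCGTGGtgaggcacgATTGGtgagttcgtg
Herpud1, chr8:94386367-94386397, plus strand: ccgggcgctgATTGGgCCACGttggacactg
Hsp90b1 held ERSE at 2 places. The 7 genes with an ERSE differed in their response to TGF-β. Canx, Creld2 and Hspa5 rose, Pdia6 fell, and Calr, Dnajc3 and Hsp90b1 were not called, with log2 fold changes between -0.19 and 0.74. Herpud1, with an ERSE-II, changed by 1.38. The UPRE, searched as TGACGTGG on both strands, was in 3 windows (Kdelr3, Sec23a and Sec24d), or 7.5% against 0.714% of all genes. The amino acid response element, searched as TGATG and AAT with 1 base between, was in 0 of the 40 windows and 1.08% of all genes, and the Smad element, GTCTAGAC, was in 0 and 0.248%. A match describes the letters in the window and is not evidence of binding, and no match says only that the letters are not there.

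Of the 10 genes of the unfolded protein response, 5 were higher after TGF-β (Dnajb11, Atf6, Manf, Creld2 and Hyou1), 2 were lower (Sdf2l1 and Ern1) and 3 were not called (Xbp1, Dnajb9 and Dnajc3), where 37.3% of all genes were higher and 37.7% lower. Their median log2 fold change was 0.19. The sensor genes Atf6 and Ern1, the latter encoding Ire1, moved in opposite directions. Atf6 had 3247, 3059 and 3249 in Stem, 4102, 4222 and 4309 under TGF-β and 4839, 4565 and 4611 in Both and rose by 0.40 ± 0.0406 (SE, adjusted p = 1.91e-06), and Ern1 fell by 0.18 ± 0.0408 (SE, adjusted p = 0.00152). Xbp1, whose messenger is spliced by Ire1, had 3124, 4376 and 3584 in Stem, 3867, 4111 and 4013 under TGF-β and 4115, 4458 and 3993 in Both, with a change of 0.11 (adjusted p = 0.286). Stem replicate 2 had the highest Xbp1 count of its group, and without it the change was 0.26 with an adjusted p of 0.00165. Gene counts do not separate spliced from unspliced Xbp1. Dnajb9 and Sdf2l1, both sensitive targets of this response that encode BiP cochaperones, changed by -0.04 (adjusted p = 0.521) and -0.36 ± 0.0940 (SE, adjusted p = 0.00396). Hyou1, a large ER chaperone, and Manf, a small secreted stress protein, rose by 0.27 and 0.33. Dnajb11, another BiP cochaperone, had 3597, 3228 and 3259.6 in Stem, 6172, 5801 and 5676 under TGF-β and 5949.5, 5957 and 5698 in Both and rose by 0.81 ± 0.0495 (SE, adjusted p = 1.89e-08).

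With PFI-3, 3 of these 10 rose and 0 fell, where 3.54% of all genes rose and 5.38% fell. The 0 lower of 10 is close to that last share. None of the 10 fell at an unadjusted p below 0.05 or with DESeq2. Dnajc3 (ENSMUSG00000022136), which encodes the BiP cochaperone and Perk inhibitor p58IPK, had 15324, 16133 and 15352 in Stem, 15412, 15916 and 16219.7 under TGF-β and 18293, 18488 and 17926 in Both. Stem and TGF-β overlapped, and every Both library was above them. Its change was 0.02 (adjusted p = 0.600) with TGF-β and 0.20 ± 0.0376 (SE, adjusted p = 0.00611) with PFI-3, and the second call held in all 16 alternatives. Under total counts the change of Dnajc3 with TGF-β was -0.10 with an adjusted p of 0.0317. Creld2, a secreted ER stress protein, had 1347, 1521 and 1364 in Stem, 1711, 1669 and 1747 under TGF-β and 1879, 1999 and 1947 in Both, with changes of 0.28 ± 0.0520 (SE, adjusted p = 4.03e-04) and 0.18 ± 0.0509 (SE, adjusted p = 0.0445). Atf6 changed by 0.15 ± 0.0401 (SE, adjusted p = 0.0386) with PFI-3. The PFI-3 calls of Creld2 and Atf6 were each lost in 8 of the 16 alternatives, among them leaving out any TGF-β or Both library.

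The PERK and ATF4 branch, listed apart from the 53 genes, gave larger values for most of its genes. All 12 of its genes rose with TGF-β, 8 of them past 2-fold, with a median log2 fold change of 2.33. Of all tested genes, 37.3% rose, and 10.6% rose past 2-fold. Trib3, a pseudokinase induced by Atf4 and Chop, had 36.6, 57.6 and 31.4 in Stem, 2551, 3113 and 2801 under TGF-β and 1659, 2126 and 1735 in Both, a change of 6.07 ± 0.166 (SE, adjusted p = 1.28e-11). Chac1, which breaks down glutathione, and Nupr1, a stress-induced chromatin factor, changed by 3.73 and 3.49. Eif2ak3, which encodes the sensor Perk itself, rose by 0.44 ± 0.0457 (SE, adjusted p = 2.51e-06), and was chosen for mention after its value was seen. The name of the list is a textbook one, and whether Perk acted on its other genes here was not tested. With PFI-3, 5 of the 12 fell and 1 (Eif2ak3) rose, where 5.38% of all genes fell and 3.54% rose. Trib3 changed by -0.62 ± 0.104 (SE, adjusted p = 0.00331), Chac1 by -0.46 (adjusted p = 0.0189) and Asns, the asparagine synthetase gene, by -0.40 (adjusted p = 5.95e-04). The count of 5 was 8 with no filter, with the 6 libraries compared and without Stem replicate 2. The single rise was lost without TGF-β replicate 2 or 3 or Both replicate 1 or 3.

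**Figure D4:**
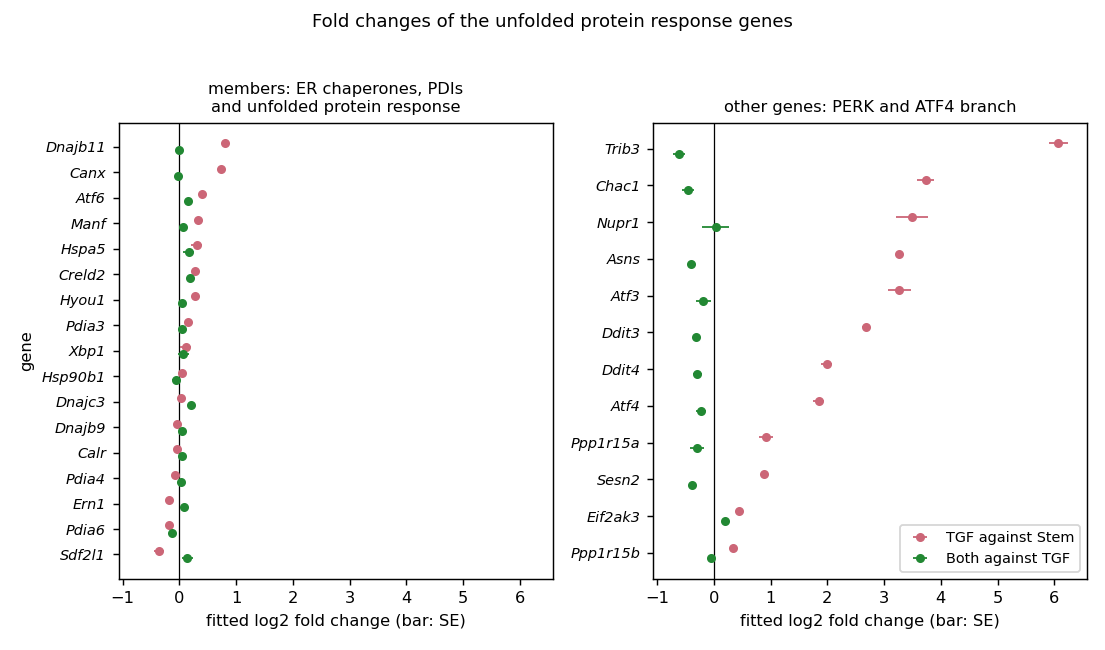
Fitted log2 fold changes with standard errors in TGF-β against Stem and Both against TGF-β for the 17 ER chaperone, disulfide isomerase and unfolded protein response genes (left) and the 12 genes of the PERK and ATF4 branch (right), on 1 shared axis. The 17 lie between -0.36 and 0.81 in both comparisons, while the 12 reach 6.07 with TGF-β, and 10 of them are below 0 with PFI-3.

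The translocon, COPII export, cargo factor and KDEL receptor genes rose with TGF-β in 9 of 10 cases. Of all tested genes 37.3% rose, and the median log2 fold change of the 10 was 0.72. The 10 include the membrane-bound factors Creb3l1 and Creb3l2 and the receptors Kdelr2 and Kdelr3. The 2 past 2-fold were Kdelr3 and Creb3l1, so none of the translocon and COPII genes was. Kdelr3 (ENSMUSG00000010830), a receptor that returns escaped ER proteins from the Golgi apparatus, had 1053, 1180.0 and 1154 in Stem, 4368, 4247 and 4186 under TGF-β and 4592, 4322 and 4279 in Both. Its TGF-β libraries were all more than 3-fold above its Stem libraries, and the change of 1.92 ± 0.0495 (SE, adjusted p = 7.99e-12) was the largest of the 52 genes. Kdelr2, a second receptor of that kind, had 5345, 5607 and 5519.6 in Stem, 8889.6, 8968 and 8983 under TGF-β and 10251, 10157 and 9656 in Both, with changes of 0.70 ± 0.0373 (SE, adjusted p = 4.75e-09) and 0.16 ± 0.0369 (SE, adjusted p = 0.0175). Together with Kdelr1, which is not among the 53, Kdelr3 supplied 14.5% ± 0.854 of the family's reads per base of exon in Stem, 28.3% ± 0.542 under TGF-β and 27.2% ± 0.410 in Both (SD, n = 3), and Kdelr2 54.3% ± 1.61, 45.8% ± 0.418 and 47.8% ± 0.566. With PFI-3 Kdelr3 changed by 0.04 (adjusted p = 0.621), and the groups overlapped. The call of Kdelr2 with PFI-3 was lost without TGF-β replicate 1, 2 or 3 or Both replicate 1 or 2.

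Creb3l1 (ENSMUSG00000027230) encodes a membrane-bound factor, also called OASIS, that drives collagen and secretory genes in osteoblasts and fibroblasts. It had 974, 869 and 1059 in Stem, 2128, 1966 and 1949 under TGF-β and 1547, 1633 and 1516 in Both. TGF-β was highest and Stem lowest, with no overlap, and the changes were 1.06 ± 0.0672 (SE, adjusted p = 2.65e-08) with TGF-β and -0.36 ± 0.0647 (SE, adjusted p = 0.00484) with PFI-3. Under total counts the first was 0.94, below 2-fold. From Stem to Both the change of Creb3l1 was 0.69 ± 0.0674 (SE, adjusted p = 1.48e-06). Its relative Creb3l2, which activates Sec23a in cartilage, had 7308, 7099.8 and 7068 in Stem, 13333, 12854 and 13139 under TGF-β and 14372, 13710.1 and 13537 in Both and changed by 0.87 ± 0.0376 (SE, adjusted p = 7.03e-10) and 0.08 (adjusted p = 0.204). Creb3l1 thus took 27.4% ± 2.02 of the pair's reads per base of exon in Stem, 30.1% ± 0.775 under TGF-β and 24.0% ± 0.932 in Both (SD, n = 3). The last step had an exact permutation p of 0.100, again the smallest possible, and Stem to TGF-β had 0.200.

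The COPII coat genes Sec23a and Sec24d, mutated in craniofacial disorders with retained collagen, both rose in each comparison. Sec23a (ENSMUSG00000020986) had 6390.2, 6298 and 6158 in Stem, 10520.1, 10163 and 10861 under TGF-β and 12498, 12151 and 11923 in Both, without overlap, with changes of 0.74 ± 0.0386 (SE, adjusted p = 3.98e-09) and 0.21 ± 0.0382 (SE, adjusted p = 0.00500). It supplied 81.7% ± 0.339, 84.5% ± 0.386 and 86.4% ± 0.314 of the Sec23 reads per base of exon in Stem, TGF-β and Both. Sec24d had 6739, 6766 and 6968 in Stem, 7384, 7108 and 7201 under TGF-β and 8062, 8162 and 7843 in Both. Its change with TGF-β, 0.08 ± 0.0353 (SE, adjusted p = 0.0481), was not called in 9 of 16 alternatives and was -0.04 under total counts. Its change with PFI-3 was 0.15 ± 0.0352 (SE, adjusted p = 0.0209), which was lost without TGF-β replicate 2 or 3 or Both replicate 1 or 2. Mia3 encodes Tango1, which recruits procollagen to the exit site, and had 11953, 11429.9 and 11587 in Stem, 12734, 12642 and 13067 under TGF-β and 14593, 14246 and 14485 in Both. Its values rose in small steps without overlap, by 0.14 ± 0.0350 (SE, adjusted p = 0.00367) and 0.17 ± 0.0350 (SE, adjusted p = 0.00988). The first was not called under total counts and the second not without TGF-β replicate 2 or Both replicate 1. Mia2, whose locus also encodes the Tango1 partner cTAGE5, had 3229.7, 2849 and 2942 in Stem, 2755, 2824 and 2831 under TGF-β and 3013, 3096 and 2995 in Both and was called in no comparison, although it was called lower with TGF-β under total counts, at -0.22 with an adjusted p of 0.00389, and without Stem replicate 2, and higher with PFI-3 without Stem replicate 1. The translocon genes Sec61a1 and Sec61b rose by 0.44 ± 0.0572 (SE, adjusted p = 2.10e-05) and 0.76 ± 0.0432 (SE, adjusted p = 9.87e-09).

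All 3 genes of ER-associated degradation rose with TGF-β, where 37.3% of all tested genes rose. Herpud1 (ENSMUSG00000031770), an ER membrane scaffold of the degradation complex, had 1316, 1303 and 1329.6 in Stem, 3481, 3359.9 and 3413 under TGF-β and 3225, 3334 and 3202 in Both and rose by 1.38 ± 0.0368 (SE, adjusted p = 1.06e-11). Every TGF-β library was above every Stem library, and the change with PFI-3 was -0.07 (adjusted p = 0.242). Edem1, a lectin that extracts misfolded glycoproteins, had 4026, 4651 and 4212 in Stem, 7582, 7521 and 7516 under TGF-β and 8453, 8842 and 8272 in Both, with changes of 0.81 ± 0.0507 (SE, adjusted p = 2.25e-08) and 0.18 ± 0.0499 (SE, adjusted p = 0.0479). The groups were apart, and the second call was lost in 8 of the 16 alternatives, among them leaving out any TGF-β or Both library. Sel1l, the adaptor of the ligase Hrd1, rose by 0.21 ± 0.0434 (SE, adjusted p = 7.93e-04).

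Wider lists of the same pathways, listed beside the 53, held further members of each step. Their counts stand against 37.3% of all genes higher and 37.7% lower with TGF-β, and 3.54% higher and 5.38% lower with PFI-3. Of 29 translocon, signal peptidase and N-glycosylation genes, 26 rose with TGF-β by edgeR and 25 by DESeq2. None fell by edgeR, by DESeq2 or at an unadjusted p below 0.05, and the largest changes were 1.04 for the signal peptidase gene Sec11c and 1.02 for the signal receptor gene Srprb. With PFI-3, 3 of them rose and 2 fell. The 3 became 5 without Stem replicate 2 and at most 1 without Stem replicate 3, any TGF-β replicate or Both replicate 1 or 2, and the 2 became at most 1 without Stem replicate 3 or any TGF-β or Both replicate. Of 34 COPII, cargo receptor and Golgi traffic genes, 25 rose and 6 fell with TGF-β, and 11 rose with PFI-3. The 6 became 3 without TGF-β replicate 2 or 3. None of the 34 fell with PFI-3 by edgeR or DESeq2, and 0 had an unadjusted p below 0.05 in that direction. The 11 became 20 with only the 6 libraries compared, 17 without Stem replicate 2, and between 3 and 6 without any 1 TGF-β or Both library. Stx5a, a Golgi SNARE gene, fell with TGF-β and rose with PFI-3, at -0.43 ± 0.0380 (SE, adjusted p = 5.23e-07) and 0.27 ± 0.0379 (SE, adjusted p = 0.00109), and the coat gene Sec24a changed by 0.24 ± 0.0353 (SE, adjusted p = 0.00145) with PFI-3. Of 19 other degradation genes tested, 14 rose and 2 fell with TGF-β, and 3 rose and 0 fell with PFI-3. DESeq2 and an unadjusted p below 0.05 also gave 0 lower there. The 3 became 1 without TGF-β replicate 1 or 2 or Both replicate 1. Edem3, a relative of Edem1, changed by -0.30 and then by 0.31 ± 0.0429 (SE, adjusted p = 9.33e-04). Of 20 further folding and proteinase genes tested, 13 rose and 3 fell, with changes of 2.08 for the collagen-binding Sparc, 1.48 for Pdia5 and 1.24 for the ER oxidase gene Ero1a. With PFI-3, 3 of the 20 rose, among them the calcium-binding Rcn1 at 0.31 ± 0.0382 (SE, adjusted p = 5.08e-04), and 4 fell, among them Sparc at -0.31 ± 0.0419 (SE, adjusted p = 8.89e-04). The rise was down to 1 gene without TGF-β replicate 2 or Both replicate 1. Of 7 genes for other membrane-bound factors and their proteases, 3 rose with TGF-β, close to the share of all genes, and 1 fell, below that share. The largest rise was that of Wfs1, at 1.09. With PFI-3, 1 of the 7 rose, which became 0 without TGF-β replicate 2 or Both replicate 1.

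The cargo of this machinery was compared with the machinery as shares of the library. All 10 cargo genes listed (8 fibrillar collagen chain genes, Fn1 and Eln) rose with TGF-β, with a median log2 fold change of 2.75, and all 10 fell with PFI-3, with a median of -0.49. Of all tested genes, 37.3% rose with TGF-β and 5.38% fell with PFI-3. The 8 collagen genes took 0.842%, 1.02% and 0.907% of the library in Stem, 3.65%, 3.95% and 3.69% under TGF-β and 2.64%, 2.82% and 2.58% in Both. The 19 tested genes of the hydroxylase, glycosylation and collagen chaperone groups took 0.423%, 0.400% and 0.415% in Stem, 0.649%, 0.655% and 0.649% under TGF-β and 0.672%, 0.685% and 0.647% in Both. For the first sum every Both library was below every TGF-β library, and for the second the libraries of TGF-β and Both overlapped. For every 100 collagen counts there were 50.2, 39.3 and 45.7 counts of those 19 genes in Stem, 17.8, 16.6 and 17.6 under TGF-β and 25.4, 24.3 and 25.1 in Both, or 45.1 ± 5.47, 17.3 ± 0.653 and 24.9 ± 0.608 (SD, n = 3). The ratio is free of library scaling, and no group overlapped another. Each step had an exact two-sided permutation p of 0.100, the smallest possible, and the smallest adjusted value over the 27 tests of shares and ratios was 0.117. Serpinh1 alone gave 8.97 ± 0.593, 4.40 ± 0.0547 and 5.28 ± 0.108 counts per 100 collagen counts, and Hspa5 11.1 ± 0.219, 3.09 ± 0.125 and 4.88 ± 0.303. All 53 genes together took 1.36% ± 0.00319 of the library in Stem, 1.69% ± 0.0212 under TGF-β and 1.74% ± 0.0511 in Both.

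**Figure D5:**
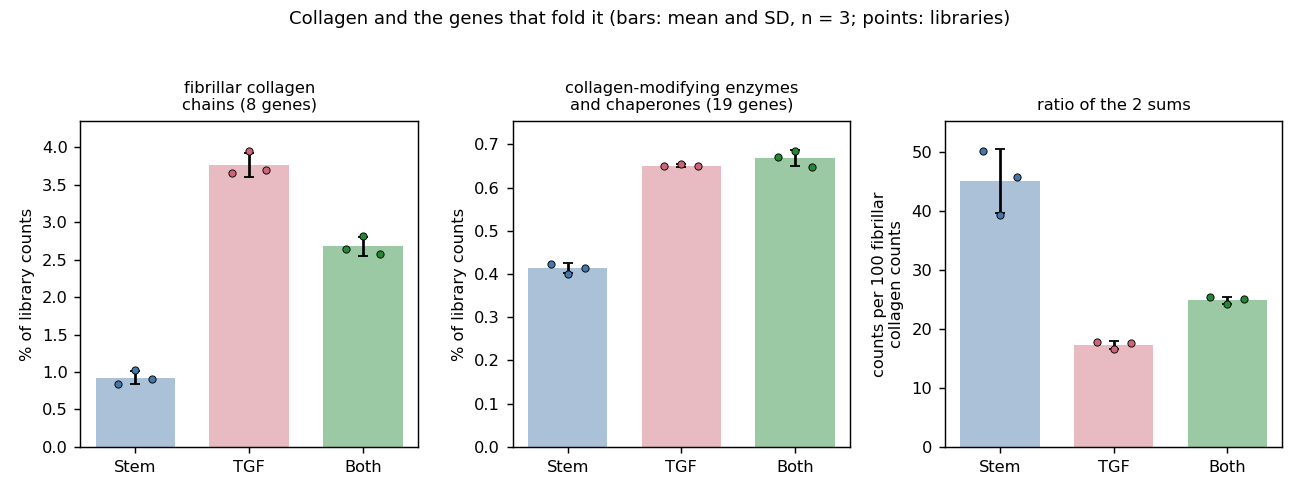
Share of library counts of 8 fibrillar collagen chain genes (left) and of 19 genes that modify or chaperone collagen (middle), and counts of the latter per 100 counts of the former (right), with bars for the mean and SD of 3 libraries and a point per library. The collagen share goes from 0.922% to 3.76% and 2.68%, the machinery share from 0.413% to 0.651% and 0.668%, and the ratio from 45.1 to 17.3 and 24.9 in Stem, TGF-β and Both.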

How the data were processed

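RNA-Seq was performed on ribosome-depleted total RNA of 9 cultures, 3 in each of the groups Stem, TGF-β and Both, and the groups and replicate numbers were taken from the labels. The study calls the replicates independent, and the labels do not say what separates them, so p-values measure the spread between these cultures. The deposited table holds raw counts per Ensembl gene, made by the authors from paired-end reads. The submitters' processing notes name HISAT2 2.2.1, SAMtools 1.13, HTSeq 0.11.3 and the build GRCm39, while the study's methods name Flexbar and STAR, so the aligner is not settled. Whether counting used the strand is not given in the sources used here, and reads shared by overlapping genes cannot be told apart. Of 55416 genes, 52083 had a symbol. Totals of 35686291 to 47741128 counts per library set the depth, and the floor of 3 counts corresponded to 2.63 to 3.26 normalized counts.

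Genes were filtered with filterByExpr, scaled by TMM (factors 0.967 to 1.08) and tested on the counts with edgeR 4.0.16 in R 4.3.3, by the quasi-likelihood test on the 9 libraries jointly, with no term but group, and Benjamini-Hochberg adjustment over 14879 genes. The common dispersion was 0.00376. Past 2-fold means an adjusted p below 0.05 and a fitted log2 fold change past 1 or -1. Shares and ratios were compared by exact two-sided permutation tests. Per-length levels divide by the union of exon lengths. The code was tested on simulated data for Stem to TGF-β over 14498 genes, where edgeR recovered 100 of 100 large and 81 of 100 small changes and made 10 false calls, 5 of them past 2-fold. The simulation left all other genes unchanged and balanced the changes up and down. In the data 37.3% of genes rose and 37.7% fell with TGF-β, so it does not cover errors of scaling there.

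The 53 genes and the wider lists were chosen with earlier results of these data known. Library values are given for genes past 2-fold in any comparison and for those called between TGF-β and Both. Those of Calr, Canx, Crtap, Creb3l2, Dnajb11, Hsp90b1, Hspa5, Mia2, P3h3, Pcolce, Pdia6, Plod2 and Xbp1 were added after their values were seen. From each wider list at most the 3 called genes with the largest change and a mean of at least 100 normalized counts were named per comparison. Alternatives were DESeq2 1.42.0, its size factors in edgeR, total counts, no filter, a mean of at least 10 counts, the replicate number as a block, the 6 libraries compared, TREAT against 2-fold and each library left out. Promoter windows are from RefSeq on GRCm38.p6, and none of their coordinates was joined to the counts. A planned count of protein C-terminal signals was not run.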

Additional observations from a re-analysis of the deposited data

How the results depend on the processing

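Counts of called genes moved most between TGF-β and Both. The 14 genes higher with PFI-3 numbered between 5 and 17 with 1 library left out, and the 3 lower were 6 with the replicate block, 5 with the 6 libraries compared and between 2 and 5 with 1 library left out. For Stem to TGF-β, total counts gave 13 lower in place of 7. The median log2 fold change of the 52 genes for that comparison, 0.33, was 0.35 with DESeq2 and with no filter, 0.22 with total counts, 0.32 with a mean of at least 10 counts and 0.31 to 0.39 with 1 library left out. For Stem to Both the median, 0.51, was 0.56 with DESeq2 and with no filter, 0.40 with total counts and 0.50 to 0.54 with 1 library left out. Total counts moved the median of all genes by -0.12 and -0.11 in these comparisons, and turned the change with TGF-β to -0.10 for Dnajc3 and -0.04 for Sec24d.

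Over the 16 alternatives, 31 of the 37 genes higher and 6 of the 7 lower with TGF-β were called in every one, as were 4 of the 14 higher and 2 of the 3 lower with PFI-3, and 37 of the 38 higher and 4 of the 6 lower from Stem to Both. The 2 lost from the last were Ern1 and Sdf2l1. TREAT left 8 genes past 2-fold for Stem to TGF-β, 7 for Stem to Both and 0 with PFI-3. Same-numbered cultures did not all deviate together, with correlations for replicates 1, 2 and 3 of 0.01, 0.14 and -0.05 for TGF-β and Both. They were 0.11, 0.17 and 0.02 for Stem and TGF-β, and 0.01, 0.20 and -0.04 for Stem and Both. Replicate 2 correlated best with its own number in every comparison, and replicates 1 and 3 did not. The numbers were therefore not taken as pairs in the main fit, and a fit with them as a block was an alternative. The block gave 17 higher and 6 lower with PFI-3, made 7 calls in all that the unblocked fit did not and lost 0. These were P4ha3, P3h1 and Hspa5 higher and Pcolce, Pcolce2 and Pdia6 lower with PFI-3, and Xbp1 higher from Stem to Both.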

Other observations

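Replicate 2 had the highest normalized count in every group for 16 of the 52 tested genes, or 30.8%, against 12.1% of all tested genes. This was noticed after the data were seen and was not tested. The 16 were Hspa5, Hsp90b1, Calr, Canx, Pdia3, Pdia4 and Pdia6, which are all 7 general ER chaperones and disulfide isomerases, the unfolded protein response genes Xbp1, Dnajb9, Sdf2l1 and Hyou1, and P4hb, Serpinh1, Ppib, Sec61a1 and Sel1l. Replicate 1 was highest in every group for 5 genes (P3h1, P3h4, Fkbp10, Pcolce and Creb3l2), or 9.62% against 6.98%, and replicate 3 for 0, against 2.54%. For Hspa5 the replicate 2 counts were 45472, 53543 and 61495 in Stem, TGF-β and Both, and the next highest replicate had 38453, 48749.8 and 52803 (replicate 3 in each group).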
